A study of Homo sapiens with 9 samples.

Results

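The interleukin receptor genes *IL2RA*, *IL2RB*, *IL2RG*, *IL4R*, *IL7R* and *IL21R* were described by the open chromatin found around them in Jurkat T cells. A region was taken when it overlapped the gene body of one of these genes or lay within 50 kb of its transcription start site (TSS), with genes placed by GENCODE release 44 on GRCh37. This rule used position only, and it took 33 of the 40703 open regions on the autosomes, X and Y, with 9 at *IL2RA*, 7 at *IL21R*, 5 at *IL2RG*, 5 at *IL7R*, 4 at *IL2RB* and 3 at *IL4R*. No region belonged to more than 1 of the 6 genes.

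Chromatin accessibility was measured by formaldehyde-assisted isolation of regulatory elements with sequencing (FAIRE-seq), in which cross-linked chromatin is sheared and the DNA that is free of protein is recovered by phenol-chloroform extraction. The series holds 9 samples of Jurkat cells, clone E6-1, a human T cell leukaemia line. It asked how a stimulus that has been taken away leaves its trace in the accessible chromatin of T cells. Peak lists of 4 samples, each of 1 library, were used, with 5 samples not analysed here.

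By their labels, these lists come from non-stimulated cells (NS) and from cells rested after stimulus withdrawal (SW), each pre-treated with the solvent DMSO or with rottlerin, a kinase inhibitor used against protein kinase C. Rottlerin was given at 15 μM for 1 h. Both SW labels describe cells stimulated for 4 h with 24 ng/mL of the phorbol ester PMA and 1 μM calcium ionophore and then rested for 1 day without the stimulus, and neither NS label includes a stimulus. The methods of the study give a shorter stimulation than these labels, so its length is uncertain. Joining the overlapping or touching peaks of all 4 lists gave 40731 regions, 28 of which lay outside the autosomes, X and Y. The same total is given for the DMSO-treated samples of the study, in the NS, stimulated, SW and re-stimulated states. Which cells the 3 lists other than NS describe could therefore not be settled, and they are called here the lists labelled SW, NS rottlerin and SW rottlerin. No difference between lists is assigned to withdrawal or to rottlerin.

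The NS list held 18977 peaks, the list labelled SW 20132, the list labelled NS rottlerin 23835 and the list labelled SW rottlerin 30409. Their median fold enrichment over total input lay between 4.03 and 4.08. Read depth is unknown from peak lists, so a region without a peak is one that was not called in that library. With 1 library per list, no spread between replicates could be measured, no test was made and no p-value is given between lists. Of 12 T cell marker genes, 10 had a region within 1 kb of their TSS in at least 1 list, and 3 (*CD3D*, *CD3E* and *CD28*) in all 4 lists. *CD2* and *CD7* had no such region, and those of *CD3G* and *CD5* had a peak in 1 list each. The share of all protein-coding genes was not counted by this measure. Of the 18 marker genes of B cells, myeloid cells, erythroid cells and liver or epithelium, only *CEBPA* had such a region, in the list labelled SW rottlerin alone.

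These receptors belong to a family that works by shared chains. *IL2RG* encodes the common gamma chain, which joins the receptors for interleukins such as IL-2, IL-4, IL-7 and IL-21 and couples them to the kinase JAK3. *IL2RB* encodes the signalling beta chain shared by the IL-2 and IL-15 receptors, and *IL2RA* encodes the alpha chain (CD25), which gives the IL-2 receptor its high affinity and is a classic marker of activated T cells. *IL4R*, *IL7R* and *IL21R* encode the chains that join the common gamma chain in the receptors for IL-4, IL-7 and IL-21. The JAK kinases and STAT factors carry the signal to the nucleus.

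Of the regions at these genes, 8 had a peak in every list but NS. The central sequence of 5 of them is shown, because this group made up a larger share of the receptor gene regions than of all regions. They are those of highest mean fold enrichment at each gene, with a pair for *IL2RA*, among regions whose peaks overlap each other in the 3 lists. They were read from GRCh37 on the strand of the gene, 5′ to 3′, and cut to the region itself. Capitals mark matches to the motifs listed further on, on either strand.
IL2RA intron 1, +9.69 kb, chr10:6094494-6094793, minus strand: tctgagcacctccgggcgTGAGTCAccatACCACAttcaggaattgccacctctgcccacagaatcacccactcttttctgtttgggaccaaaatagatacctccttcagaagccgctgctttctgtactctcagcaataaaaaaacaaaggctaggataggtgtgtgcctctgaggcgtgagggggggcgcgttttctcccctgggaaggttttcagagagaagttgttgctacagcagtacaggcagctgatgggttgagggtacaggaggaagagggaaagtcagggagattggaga
IL2RA intron 1, +25.1 kb, chr10:6079120-6079419, minus strand: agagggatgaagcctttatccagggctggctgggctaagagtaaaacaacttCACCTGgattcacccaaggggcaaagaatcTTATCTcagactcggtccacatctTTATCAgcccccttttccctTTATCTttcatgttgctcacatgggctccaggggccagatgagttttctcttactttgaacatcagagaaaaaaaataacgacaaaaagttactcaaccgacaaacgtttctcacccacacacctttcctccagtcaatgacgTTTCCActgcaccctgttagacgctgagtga
IL2RB, +52.7 kb, chr22:37518272-37518571, minus strand: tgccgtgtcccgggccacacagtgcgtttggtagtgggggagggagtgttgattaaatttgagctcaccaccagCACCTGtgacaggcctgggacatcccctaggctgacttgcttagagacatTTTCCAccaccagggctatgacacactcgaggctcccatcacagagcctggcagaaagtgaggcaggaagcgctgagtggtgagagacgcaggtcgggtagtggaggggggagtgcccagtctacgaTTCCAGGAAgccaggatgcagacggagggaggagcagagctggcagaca
IL7R, +49.8 kb, chr5:35902418-35902717, plus strand: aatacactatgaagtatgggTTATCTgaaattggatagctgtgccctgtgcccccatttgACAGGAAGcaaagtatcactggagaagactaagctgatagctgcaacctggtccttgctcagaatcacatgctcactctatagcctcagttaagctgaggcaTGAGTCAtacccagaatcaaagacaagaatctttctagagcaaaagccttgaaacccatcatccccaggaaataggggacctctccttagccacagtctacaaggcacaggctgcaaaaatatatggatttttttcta
IL21R intron 1, +24.4 kb, chr16:27437809-27438038, plus strand: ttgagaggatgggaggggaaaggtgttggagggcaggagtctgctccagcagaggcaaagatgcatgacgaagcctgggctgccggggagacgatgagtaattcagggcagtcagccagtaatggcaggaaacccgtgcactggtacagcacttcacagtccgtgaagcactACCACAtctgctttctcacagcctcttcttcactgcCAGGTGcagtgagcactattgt

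Fold enrichment is the MACS2 ratio of a library to the total input at a peak, and it is the value given for every region. The receptor gene regions held 92 peaks, 161 to 1403 bp wide, with a fold enrichment from 2.73 to 6.32 and a median of 4.09. Of these peaks, 1 had a q-value above 0.05. In 25 of the 26 regions with peaks in more than 1 list, all the peaks overlapped each other. The map of regions by list and the chart of fold enrichment show each value at its gene.

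**Figure D1:**
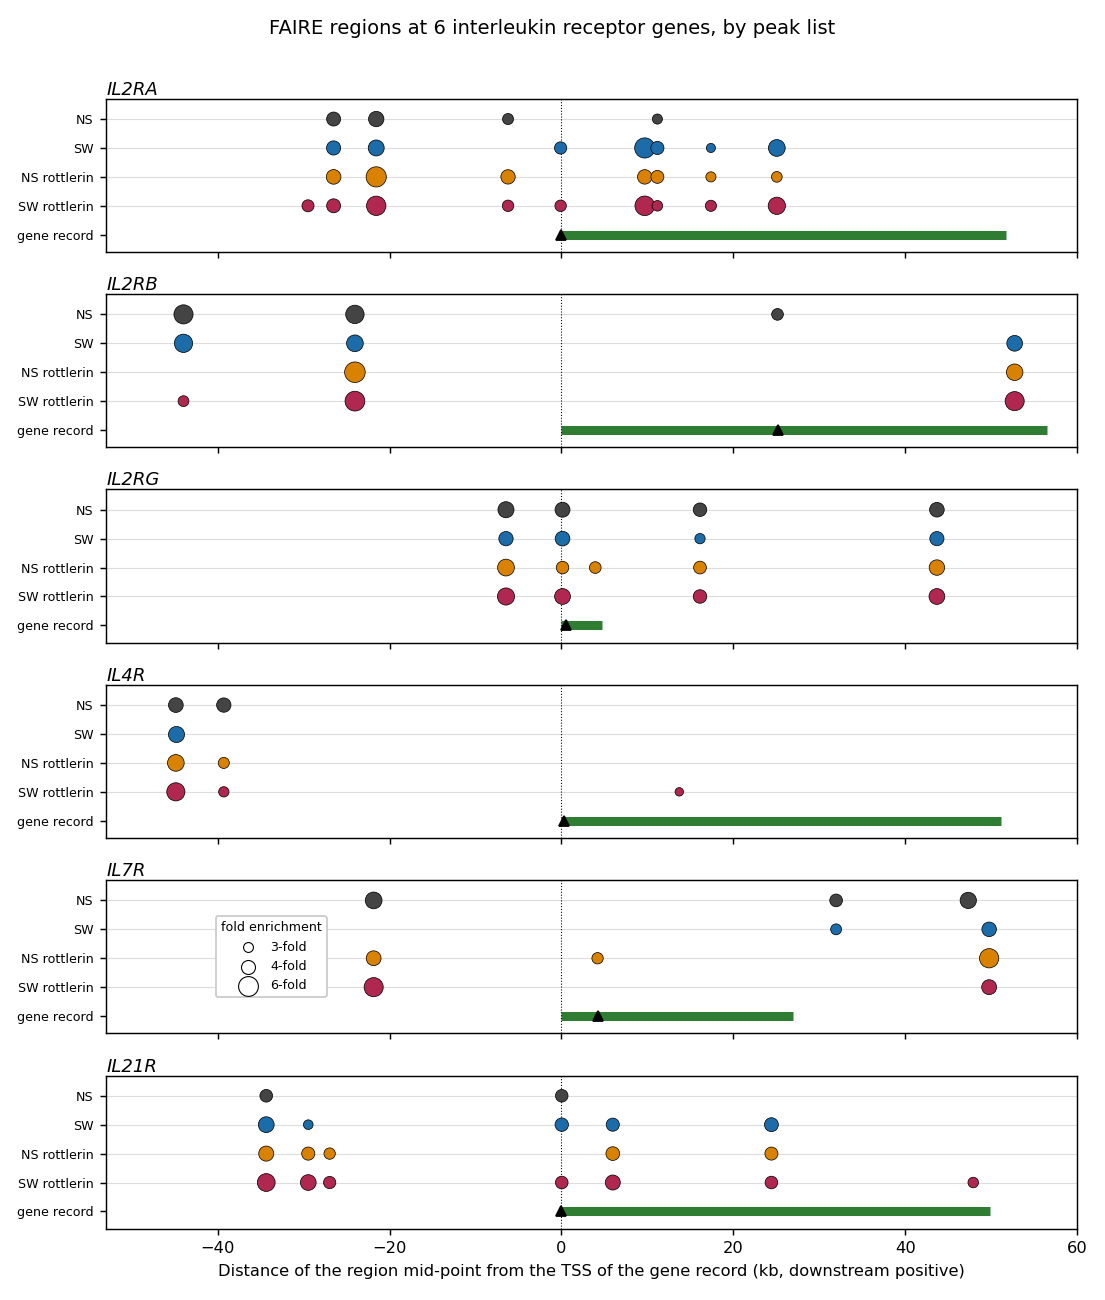
Regions at the 6 genes, by distance of their mid-point from the TSS of the GENCODE gene record (kb, downstream positive), with a row for each list as labelled and 1 library per row. The area of each point grows with fold enrichment, the green bar is the gene record and the black triangle is the TSS of its canonical transcript. IL2RA had 4 regions with a peak in the NS list and 9 in the list labelled SW rottlerin, whereas IL2RG had 4 in each of these lists.

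Of the 33 regions, 18 had a peak in the NS list, which is 54.5% against 46.5% of all 40703 regions. The list labelled SW had a peak in 22, or 66.7% against 49.3% of all regions. The list labelled NS rottlerin had 24, or 72.7% against 58.4%, and that labelled SW rottlerin had 28, or 84.8% against 74.5%. The receptor gene regions thus lay above the share of all regions in each list, and the order of the lists was that of their numbers of peaks.

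A peak in all 4 lists was found in 10 regions, or 30.3% against 26.6% of all regions. No peak in the NS list was found in 15, or 45.5% against 53.5%, and when each list was held to the same number of peaks it was 9 of 27, or 33.3% against 41.5%. With a peak required to cover at least 50% of its region, it was 19 of 33, or 57.6% against 60.2%. The direction was opposite with the higher-scoring 50% of each list, at 12 of 21, or 57.1% against 52.1%. A peak in every list but NS was found in 8, or 24.2% against 7.08%. When only the 50% of peaks with the highest scores were kept, this last count was 5 of 21, or 23.8% against 6.91%. When a peak had to cover at least 50% of its region, it was 5 of 33, or 15.2% against 6.31%. These 8 regions lay at *IL2RA* (3), *IL21R* (3), *IL2RB* (1) and *IL7R* (1), and none at *IL2RG* or *IL4R*. The NS list was the only one with a peak in 2 regions, or 6.06% against 7.83% of all regions.

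**Figure D2:**
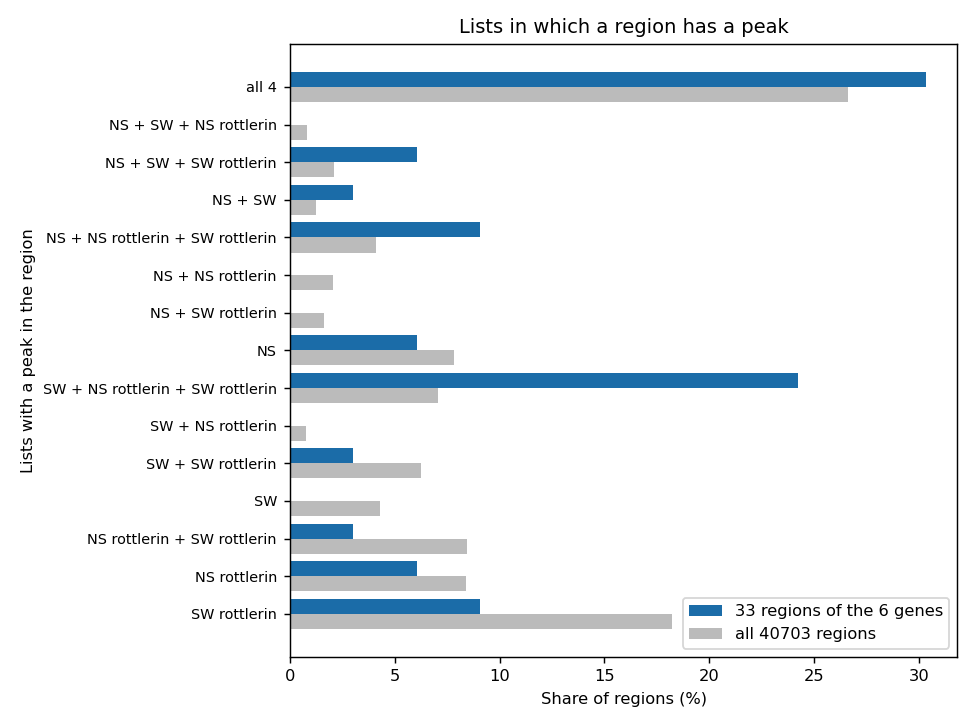
Share of regions (%) with a peak in each combination of the 4 lists, for the 33 regions of the 6 genes (blue) and for all 40703 regions (grey). The bar for every list but NS reaches 24.2% at the receptor genes and 7.08% over all regions, and the bars for all 4 lists reach 30.3% and 26.6%.

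Set against the NS list, the list labelled SW had a peak where NS had none in 9 regions, or 27.3% against 18.4% of all regions. For the list labelled NS rottlerin there were 11, or 33.3% against 24.7%, and for that labelled SW rottlerin 13, or 39.4% against 40%. Of the 18 regions with an NS peak, 5 had no peak in the list labelled SW, which is 27.8% against 33.7% of all regions with an NS peak. In the list labelled NS rottlerin, 5 of the 18 had none, or 27.8% against 27.6%, and in that labelled SW rottlerin 3 of the 18, or 16.7% against 25.8%. The regions at *IL2RB* +25.1 kb and *IL7R* +47.3 kb, which had a peak in NS alone, are counted in each of these losses.

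**Figure D3:**
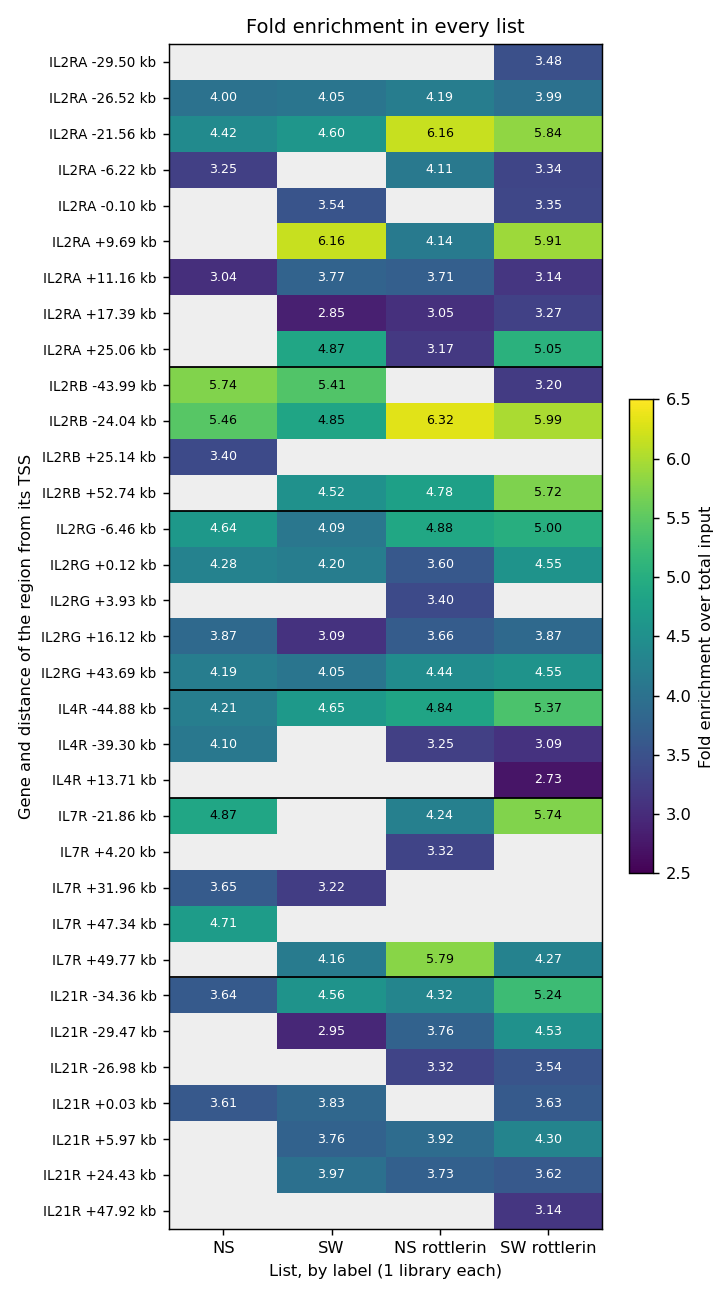
Fold enrichment over total input (colour and printed value) in each of the 33 regions, in rows by gene and distance from the TSS, with the 4 lists as labelled in columns. Grey cells have no peak, and the values run from 2.73 at IL4R +13.71 kb to 6.32 at IL2RB −24.04 kb.

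*IL2RA* (ENSG00000134460) lies at chr10:6052652-6104333 on the minus strand. Its 9 regions were more than the 3 of the median protein-coding gene, and 5.41% of the 20136 protein-coding genes had at least as many. They held 4 peaks in the NS list, 7 in each of the lists labelled SW and NS rottlerin and 9 in that labelled SW rottlerin. The regions without an NS peak lay mainly inside the gene, where 3 of the 4 regions of intron 1 had none.

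The region at *IL2RA* +9.69 kb (chr10:6094330-6094957, intron 1) had no NS peak, and its fold enrichment was 6.16 in the list labelled SW, 4.14 in that labelled NS rottlerin and 5.91 in that labelled SW rottlerin. It stood above 97.6%, 59.7% and 89.6% of the 2883 regions with the same pattern, in the order of these lists. Its sequence above holds an AP1 match at chr10:6094769-6094775 and a RUNX match just beside it, and the peaks of all 3 lists contain them. The neighbouring region at +11.2 kb (chr10:6092950-6093400) had a peak in all 4 lists, with 3.04 in NS, 3.77 in the list labelled SW, 3.71 in NS rottlerin and 3.14 in SW rottlerin. These adjacent regions of the same intron thus differed in whether NS had a peak, and the region called in NS had the lower fold enrichment in each of the other lists.

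Farther into intron 1, the region at +25.1 kb (chr10:6079014-6079525) had no NS peak and reached 4.87 in the list labelled SW, 3.17 in NS rottlerin and 5.05 in SW rottlerin. The lists labelled SW and SW rottlerin were the higher ones at +25.1 kb, as at +9.69 kb. Of its 3 GATA matches, the peaks of 2 lists contain the pair nearest to its NFAT match, whereas the peaks of all 3 lists contain the NFAT match itself. The region at +17.4 kb (chr10:6086247-6087649) was weaker, with no NS peak and 2.85, 3.05 and 3.27 in the lists labelled SW, NS rottlerin and SW rottlerin. Its peak in the list labelled SW had a q-value of 0.0596, the only receptor gene peak above 0.05.

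The *IL2RA* promoter region (chr10:6104277-6104597), which covers the TSS, had a peak in the list labelled SW, at 3.54, and in that labelled SW rottlerin, at 3.35. The NS list and the list labelled NS rottlerin had no peak there. The canonical TSS itself is inside the peak of the list labelled SW, whereas the peak of that labelled SW rottlerin lies just upstream of it. The part of this region before the gene record is shown because it is the start site of the gene. Its 264 bases hold no match to the exact letters searched, which are listed further on for every motif but NFκB. Other forms of these motifs, such as wider NFκB patterns, were not searched. The lack of a match here therefore does not mean that these bases lack an NFκB consensus site.
IL2RA promoter, chr10:6104334-6104597, minus strand: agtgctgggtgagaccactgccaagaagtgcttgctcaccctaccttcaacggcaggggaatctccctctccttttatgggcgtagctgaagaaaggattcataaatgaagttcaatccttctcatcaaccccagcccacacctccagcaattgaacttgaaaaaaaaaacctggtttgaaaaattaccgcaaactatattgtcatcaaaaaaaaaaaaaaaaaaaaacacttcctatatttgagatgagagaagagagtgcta

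Upstream, *IL2RA* −6.22 kb (chr10:6110455-6110661) had a peak in NS at 3.25, in NS rottlerin at 4.11 and in SW rottlerin at 3.34, and none in the list labelled SW. The remaining 3 regions of the window lay nearer to *RBM17*, which encodes a splicing factor, than to *IL2RA*. Of these, −21.6 kb (chr10:6125746-6126041) had a peak in all 4 lists, at 4.42 in NS, 4.60 in SW, 6.16 in NS rottlerin and 5.84 in SW rottlerin. The region at the *RBM17* promoter (−26.5 kb) was almost level across the lists, between 3.99 and 4.19. A region in an *RBM17* intron (−29.5 kb, chr10:6133651-6134016) had a peak in the list labelled SW rottlerin alone, at 3.48.

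*IL2RB* (ENSG00000100385) lies at chr22:37514706-37571158 on the minus strand. Its canonical transcript starts at position 37545956, which is 25.2 kb inside the gene record. It had 4 regions, and 40.6% of protein-coding genes had at least as many. The region over the canonical TSS (chr22:37545932-37546111) was called in the NS list and in no other, at 3.40.

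The region at *IL2RB* +52.7 kb (chr22:37518268-37518576) had the reverse pattern, with no NS peak and 4.52 in the list labelled SW, 4.78 in NS rottlerin and 5.72 in SW rottlerin. It lies within the gene record, 27.5 kb beyond the canonical TSS and outside the canonical transcript, and the nearest coding TSS is that of *TMPRSS6*, which encodes a membrane serine protease, 12.7 kb away. Its sequence above holds a STAT match at chr22:37518312-37518320 and an NFAT match, and the peaks of all 3 lists contain both.

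Far upstream, *IL2RB* −44.0 kb (chr22:37614936-37615359) had a fold enrichment of 5.74 in NS, 5.41 in the list labelled SW and 3.20 in that labelled SW rottlerin, with no peak in NS rottlerin. It is nearer to the TSS of *SSTR3*, a somatostatin receptor gene 6.63 kb away. Among regions with its pattern, 18 had a higher value in NS. The region at −24.0 kb (chr22:37594653-37595734), at the start of *C1QTNF6*, had 5.46 in NS, 4.85 in SW, 6.32 in NS rottlerin and 5.99 in SW rottlerin. It was the highest receptor gene region in the NS rottlerin and SW rottlerin lists, whereas −44.0 kb was higher in NS. In the list labelled SW, −44.0 kb, *IL2RA* +9.69 kb and, narrowly, *IL2RA* +25.1 kb (4.87) were higher.

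*IL2RG* (ENSG00000147168) is a short gene of 4.7 kb at chrX:70327254-70331958, minus strand. It had 5 regions, and 28.8% of protein-coding genes had at least as many. The common gamma chain gene was the only one of the 6 whose canonical TSS lay in a region called in all 4 lists. The peak of the list labelled SW contains the TSS base itself, and the other peaks begin a few bases upstream of it. The region (chrX:70331397-70332278) had a fold enrichment of 4.28 in NS, 4.20 in SW, 3.60 in NS rottlerin and 4.55 in SW rottlerin.

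A further 3 regions of the *IL2RG* window were present in all 4 lists and lay in 5′UTRs of neighbouring genes. They were those of *MED12*, *FOXO4* and *SNX12*, genes of a Mediator subunit, a forkhead factor and a sorting nexin. At *MED12* (−6.46 kb, chrX:70338295-70338549) the fold enrichment was 4.64 in NS, 4.09 in SW, 4.88 in NS rottlerin and 5.00 in SW rottlerin. At *SNX12* (+43.7 kb, chrX:70287918-70288626) it was 4.19, 4.05, 4.44 and 4.55 in the same order, and at *FOXO4* (+16.1 kb) it ran from 3.09 to 3.87. The only other region (+3.93 kb, chrX:70327950-70328114) had a peak in the list labelled NS rottlerin alone, at 3.40. Its mid-point lies in intron 7 of the canonical *IL2RG* transcript, but in an exon when all transcripts are counted. The nearest coding TSS to this region is that of *CXorf65*, 1.39 kb away. The *IL2RG* window therefore held 4 peaks in NS and 4 or 5 in each other list.

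*IL4R* (ENSG00000077238, chr16:27324989-27376099, plus strand) had 3 regions, and 55.6% of protein-coding genes had at least as many. No list had a peak at its canonical TSS, which made it the only one of the 6 genes with none there. Inside the gene, a region of intron 1 (+13.7 kb, chr16:27338543-27338853) had a peak in the list labelled SW rottlerin alone, at 2.73. This was the lowest fold enrichment of the 92 receptor gene peaks.

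The other regions of the *IL4R* window lay nearer to *NSMCE1*, which encodes a subunit of the SMC5/SMC6 complex. That at the *NSMCE1* start (−44.9 kb, chr16:27279982-27280231) had a fold enrichment of 4.21 in NS, 4.65 in SW, 4.84 in NS rottlerin and 5.37 in SW rottlerin. That at −39.3 kb (chr16:27285570-27285816) had 4.10 in NS, 3.25 in NS rottlerin and 3.09 in SW rottlerin, and no peak in the list labelled SW. NS was thus the lowest list at −44.9 kb and the highest at −39.3 kb.

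*IL7R* (ENSG00000168685, chr5:35852797-35879705, plus strand) had 5 regions, none of them with a peak in all 4 lists. Its canonical TSS lies 4.2 kb inside the gene record, in a region (chr5:35856901-35857098) with a peak in the list labelled NS rottlerin alone, at 3.32. Upstream, −21.9 kb (chr5:35830782-35831096) had a peak in NS at 4.87, in NS rottlerin at 4.24 and in SW rottlerin at 5.74, and none in the list labelled SW.

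The 3 regions downstream of *IL7R* had differing patterns. At +31.96 kb (chr5:35884418-35885101) NS had 3.65 and the list labelled SW 3.22, with no peak in the others. At +47.3 kb (chr5:35899986-35900282) NS alone had a peak, at 4.71. About the same distance away, at +49.8 kb (chr5:35902402-35902733), every list but NS had a peak, at 4.16 in SW, 5.79 in NS rottlerin and 4.27 in SW rottlerin. The neighbouring regions at +47.3 and +49.8 kb thus shared no list. Both are nearer to the TSS of *CAPSL*, which encodes a calcyphosine-like protein, than to that of *IL7R*, and the latter region lies just inside the 50 kb limit. Its sequence above holds an ETS and an AP1 match, and the peaks of all 3 lists contain both.

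*IL21R* (ENSG00000103522, chr16:27413495-27463363, plus strand) had 7 regions, and 13.1% of protein-coding genes had at least as many. Of these, 2 had a peak in the NS list, 5 in each of the lists labelled SW and NS rottlerin and all 7 in that labelled SW rottlerin. The nearest coding TSS was that of *IL21R* for every region. The promoter region over its TSS (chr16:27413285-27413764) had 3.61 in NS, 3.83 in SW and 3.63 in SW rottlerin, and no peak in the list labelled NS rottlerin. Within the gene, intron 1 held 2 regions, and neither had an NS peak.

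At *IL21R* +24.4 kb (chr16:27437809-27438038) the fold enrichment was 3.97 in the list labelled SW, 3.73 in NS rottlerin and 3.62 in SW rottlerin. At +5.97 kb (chr16:27418569-27420354) it was 3.76, 3.92 and 4.30 in the same order. This last region, the widest of the 33 at 1786 bp, is the only one whose peaks do not all overlap, since the peaks of the lists labelled SW and NS rottlerin are joined through that of the list labelled SW rottlerin. At −29.5 kb (chr16:27383844-27384201) there was again no NS peak, with 2.95 in SW, 3.76 in NS rottlerin and 4.53 in SW rottlerin.

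Of the other *IL21R* regions, −34.4 kb (chr16:27378616-27379647) had a peak in all 4 lists, at 3.64 in NS, 4.56 in SW, 4.32 in NS rottlerin and 5.24 in SW rottlerin. NS was the lowest list there. A region at −27.0 kb (chr16:27386356-27386672) had a peak in the lists labelled NS rottlerin, at 3.32, and SW rottlerin, at 3.54. A region in the 3′UTR of exon 9 (+47.9 kb, chr16:27461266-27461561) had a peak in the list labelled SW rottlerin alone, at 3.14.

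The merged regions over the start sites differed from gene to gene in the lists that had a peak in them. The canonical TSS lay in a region of at least 1 list for 5 of the 6 genes, against 41.4% of 19856 protein-coding genes, and in all 4 lists for 1 of 6, *IL2RG*, against 29.9%. At *IL2RB* the NS list alone had a peak in that region, and at *IL7R* the list labelled NS rottlerin alone. At *IL2RA* the lists labelled SW and SW rottlerin had a peak, and at *IL21R* all but that labelled NS rottlerin. A peak contained the TSS base itself in 3 lists at *IL21R*, in 1 list at each of *IL2RA*, *IL2RB*, *IL2RG* and *IL7R*, and in none at *IL4R*. Most peaks in these regions were low for their lists. Those at *IL2RB* and *IL7R* stood above 20.9% and 17.6% of the regions of their list. At *IL2RA* the shares were 27.6% (list labelled SW) and 19.9% (SW rottlerin), at *IL21R* 30.6% to 41.1% and at *IL2RG* 29.4% to 67.5%. With 6 genes these counts are a description only.

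Where a region had a peak in NS and in another list, the fold enrichments stayed close, and the plot of shared regions shows them. In the list labelled SW, the ratio to NS over 13 regions had a median of 0.98, as over all shared regions, and was lowest at 0.80 and highest at *IL21R* −34.4 kb (4.56 against 3.64 in NS). None reached 1.5 or fell to 1/1.5, against 1.67% and 2.18% of all shared regions. In the list labelled NS rottlerin, the ratio ran from 0.79 to 1.39 over 13 regions, with a median of 1.06 against 1.04. None passed either limit there, against 3.19% and 1.38%. The regions shared with NS thus lay near the centre of all shared regions.

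In the list labelled SW rottlerin, the ratio ran from 0.56 to 1.44 over 15 regions, with a median of 1.06, equal to that over all shared regions. None reached 1.5, against 4.5% of all shared regions, and 1 lay at or below 1/1.5, against 1.54%. That region was *IL2RB* −44.0 kb, with a ratio of 0.56, and it fell outside the window when the canonical TSS was used. The highest ratio, 1.44, belonged to *IL21R* −34.4 kb, which had 1.19 in the list labelled NS rottlerin. At *IL2RA* −21.6 kb the ratios were 1.04, 1.39 and 1.32 in the lists labelled SW, NS rottlerin and SW rottlerin.

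**Figure D4:**
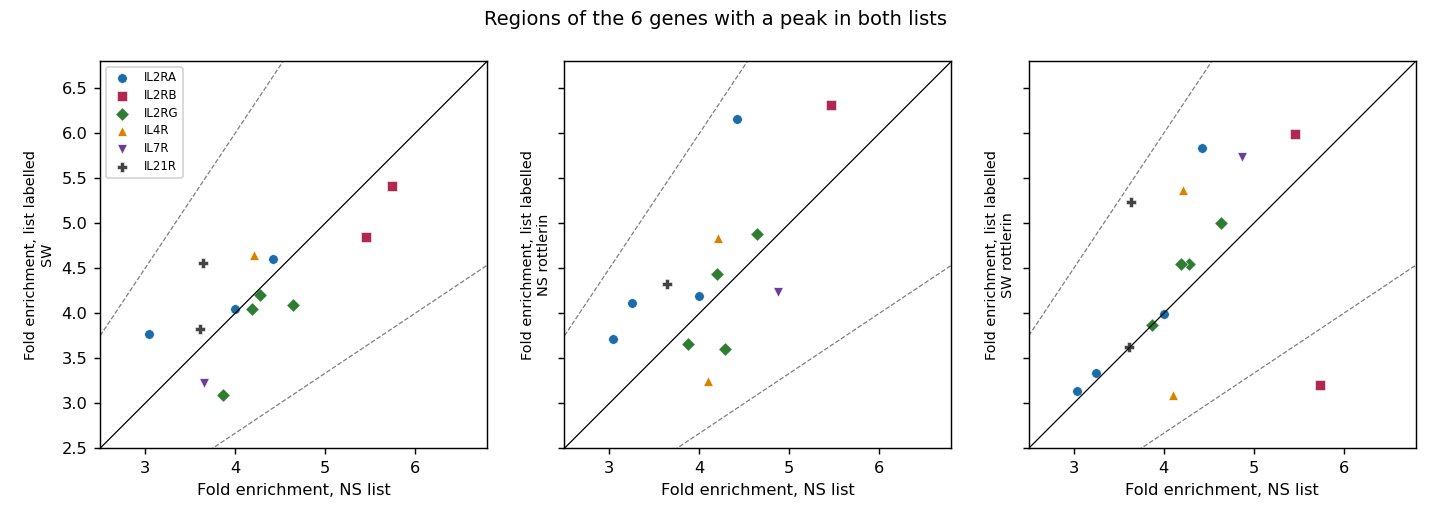
Fold enrichment in the NS list (horizontal) against each other list as labelled (vertical), for receptor gene regions with a peak in both: 13, 13 and 15 regions from left to right. The solid line marks equal values and the dashed lines ratios of 1.5 and 1/1.5, and only IL2RB −43.99 kb in the right panel lies outside them, at 5.74 in NS and 3.20 in SW rottlerin.

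Among regions with a peak in every list but NS, the levels at the receptor genes lay near those of all such regions. In the list labelled SW they ran from 2.85 to 6.16, with a median of 4.06 against 3.89. In NS rottlerin they ran from 3.05 to 5.79, with a median of 3.84 against 3.95. In SW rottlerin they ran from 3.27 to 5.91, with a median of 4.42 against 4.30.

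The regions with a peak in every list but NS and those in all 4 lists lay at different positions, and all regions with these patterns differed in the same directions near a TSS, in introns and in CpG and GC content. Of the 8 regions with a peak in every list but NS, 6 were nearest to the TSS of their own receptor gene, whereas 7 of the 10 regions in all 4 lists were nearest to another gene, counts that have no counterpart over all regions. None of the 8 had its mid-point within 1 kb of a coding TSS, against 14% of all regions with this pattern, and 6 of the 8 lay in introns, against 57.6%. Of the 10 regions in all 4 lists, 6 had their mid-point within 1 kb of a coding TSS, against 45.6% of all such regions. CpG-island-like sequence (at least 50% GC and an observed to expected CpG ratio of at least 0.6) was found in none of the 8 and in 5 of the 10, against 15.9% and 50.2% of all regions with these patterns. Median GC content was 49.2% in the 8 and 62.2% in the 10, against 46.3% and 57% of all regions with these patterns.

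Motif matches were counted in the central 300 bp of each region on both strands. AP1 was searched as TGACTCA or TGAGTCA, NFAT as TGGAAA and STAT as TTCNNNGAA. GATA was searched as AGATAA or TGATAA, RUNX as TGTGGT and the E box as CACCTG. ETS was searched as ACAGGAAG, ACCGGAAG, GCCGGAAG or CAGGAAGT, and EGR as GCGTGGGCG or GCGGGGGCG. NFκB was searched by letters narrower than its general consensus, so sites that fit only the wider form were not counted. An NFAT match can overlap a STAT or NFκB match, and an ETS match a STAT match. An AP1 match was present in 5 of the 33 regions, or 15.2% against 13.2% of all regions, and all 5 had no NS peak. They were *IL2RA* +9.69 kb, *IL4R* +13.7 kb, *IL7R* +49.8 kb and *IL21R* −27.0 and +5.97 kb. Among receptor gene regions lacking an NS peak the share was 33.3%, against 19.8% of all such regions, and among the 18 called in NS it was 0, against 5.55%.

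A STAT match was present in 7 of the 33 regions, or 21.2% against 9.53% of all regions. They included *IL2RB* +52.7 and −44.0 kb, *IL21R* −29.5 and +24.4 kb and *IL2RA* −29.5 kb, and the match at *IL21R* +24.4 kb lies beyond the printed bases. NFAT matches were present in 11 (33.3% against 27.9%), RUNX in 12 (36.4% against 32.8%), GATA in 9 (27.3% against 31.5%) and E box in 8 (24.2% against 21.4%). With the central 500 bp searched, the E box share was 48.5%, against 32.7% of all regions. EGR matches were present in 1 (3.03% against 2.51%), ETS in 6 (18.2% against 14%) and NFκB in 2 (6.06% against 3.59%). A match is a run of letters and not a bound site.

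The other genes of the pathway were counted by the same rule. At least 1 region was present at 85.6% of all protein-coding genes. Over all regions, 53.5% had no NS peak, 7.08% had a peak in every list but NS and 26.6% in all 4 lists. Of 16 other cytokine receptor chains, 12 had a region, and of their 67 regions 39 had no NS peak (58.2%), 6 had a peak in every list but NS (8.96%) and 13 in all 4 lists (19.4%). *IL10RB*, a chain of the IL-10 receptor family, had the most, with 13 regions. None with an NS peak was among the 5 regions of *IL18R1*, the IL-18 receptor, the 5 of *IL1R1* or the 2 of *IL18RAP*. *IL15RA*, *IL9R*, *IL13RA1* and *CRLF2* had no region. Of these, *IL9R* encodes a partner of the common gamma chain, *IL13RA1* a partner of the IL-4 receptor chain and *CRLF2* a partner of the IL-7 receptor chain.

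The 10 kinases and STAT factors all had a region, and of their 58 regions 28 had no NS peak (48.3%), 3 had a peak in every list but NS (5.17%) and 18 in all 4 lists (31%). *JAK3*, the kinase bound by the common gamma chain, had 4 regions, *STAT5A* 11 and *STAT5B* 12, with regions that neighbouring genes share counted in each gene and only once in the total. Of the 8 ligand genes, 5 had a region, with 11 regions in all, of which 7 had no NS peak (63.6%), 2 had a peak in every list but NS (18.2%) and 4 in all 4 lists (36.4%). *IL2*, whose product binds the receptor of *IL2RA*, *IL2RB* and *IL2RG*, had 2 regions, neither with an NS peak. No region of these lists was also a region of the 6 receptor genes.

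For receptor genes with at least 5 regions, the protein-coding genes with the most similar counts over the 15 possible list combinations were found by Manhattan distance. For *IL2RG*, *PAQR7*, *STMN1* and *RBM4B* had the same counts (distance 0), among 14 genes at that distance. For *IL2RA*, 4 genes were nearest, at a distance of 2, and *PTPRE*, *CLCN3* and *TYROBP* were the closest of these in summed fold enrichment. *SEM1* and *MSMB*, at 1, were nearest to *IL7R*, followed by 18 genes at 2, of which *ABCD3* was the closest in summed fold enrichment. For *IL21R*, 12 genes were nearest, at a distance of 2, and *PRDM8*, *ERC2* and *ANKRD22* were chosen among them in the same way.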

How the data were processed

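FAIRE-seq libraries of Jurkat cells were compared through their MACS2 peak lists, 1 library for each of 4 groups. From the methods and the labels, the authors used CutAdapt for adapters, Bowtie2 for alignment to Hg19 and Picard for duplicates, and MACS2 called broad peaks in each library against total input. HTSeq is also named in the labels. Tool versions are not given in the sources used here. The deposited files hold for each peak its position, a score, the fold enrichment over total input as a ratio, and its p-value and q-value as −log10, and the score deposited is 10 times the −log10 q-value without its decimals. These are peak lists, so read depth and the precision it would give are unknown, and peak numbers of the lists ranged from 18977 to 30409.

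Peaks that overlapped by at least 1 bp or touched were joined (Python 3.11.15, pandas 2.3.3, numpy 2.4.6). A region was assigned each list with a peak in it and the highest fold enrichment of that list. The 28 regions on other contigs were dropped. Each region mid-point was given its place in a gene, its untranslated, exonic and intronic parts first, then the promoter (up to 1 kb upstream of a TSS) and the 10 kb upstream, with bedtools 2.31.1. Genes came from GENCODE release 44 on GRCh37, the assembly of Hg19, and sequences were read with samtools 1.23.1 and pysam 0.24.0. Figures were drawn with matplotlib 3.10.9. Every region of the 6 genes was accounted for, with those at a TSS, without an NS peak, in NS alone or among the 3 highest of their gene described in full. Members, gene lists and motifs were chosen with earlier results of these data known. The steps were tested on simulated data. Alternatives were another window, TSS, joining rule, peak set, overlap, fold limit, scaling or motif window, and each list left out in turn.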

Additional observations from a re-analysis of the deposited data

How the results depend on the processing

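Of 298 alternative values over 30 results, 259 stayed within the set margins and 39 moved. The margins set each value against its main value and not against all regions, so they record no change of direction. With the higher-scoring 50% of each list, the share without an NS peak went from below all regions (45.5% against 53.5%) to above them (57.1% against 52.1%). With a 25 kb window there were 21 regions, 10 with a peak in NS, 14 in the list labelled SW, 18 in SW rottlerin and 6 in all 4 lists, and 0 regions at or below 1/1.5 of NS in SW rottlerin. With 100 kb, 26 regions had no NS peak, and in SW rottlerin 1 reached 1.5 times NS and 2 lay at or below 1/1.5. With the canonical TSS, and with a fold limit of 2, the latter count was 0. With the higher-scoring 50% of each list there were 21 regions, 9 with a peak in NS, 14 in SW, 12 in NS rottlerin and 17 in SW rottlerin, 4 in all 4 lists, 5 in every list but NS, and 0 at or below 1/1.5 in SW rottlerin. With every list cut to as many peaks as the shortest, 18 of 27 regions had a peak in SW rottlerin, 9 had no NS peak and 0 lay at or below 1/1.5 in SW rottlerin. When a peak had to cover at least 50% of its region, 5 regions were in all 4 lists and 5 in every list but NS. With a fold limit of 5/4, the counts above and below were 1 and 1 of 13 shared regions in SW, 2 and 1 of 13 in NS rottlerin and 3 and 2 of 15 in SW rottlerin. Under these alternatives the share over all regions was counted only where it is printed here or earlier. The other counts can therefore not be read as above or below it. In the central 500 bp, the E box share was 48.5%, against 32.7% of all regions. Counts of single genes also moved, at *IL4R* from 3 to 1 at 25 kb, 11 at 100 kb and 1 with the higher-scoring 50%, at *IL7R* from 5 to 2 at 25 kb and 3 with the higher-scoring 50%, at *IL21R* from 7 to 4 at 25 kb, at *IL2RB* from 4 to 8 at 100 kb and at *IL2RG* from 5 to 3 with the higher-scoring 50%. A stricter limit, window or peak set gives fewer regions by construction, and otherwise the cause was not tested.

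Leaving out each list other than NS gave 13 to 15 regions without an NS peak. Counts over all 4 lists, or over every list but NS, have no value with a list left out, nor do ratios to NS without NS. No paired analysis was possible because each group has 1 library. Unknown depth limits every absence of a peak.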

Other observations

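The nearest called region on each side of every 50 kb window was read from the same lists. Of these 12 regions, 2 belong to the other gene of the neighbouring pair *IL4R* and *IL21R*, as *IL4R* +54.1 kb is *IL21R* −34.4 kb and *IL21R* −74.8 kb is *IL4R* +13.7 kb, and they were counted there. The other 10 lay in no 50 kb window, and some are counted in the 100 kb alternative. A peak in all 4 lists was found in 3 of these. At *IL2RA* +172.3 kb the fold enrichment was 6.29 in NS, 6.23 in SW, 6.61 in NS rottlerin and 5.99 in SW rottlerin, and at *IL2RB* +196.9 kb it was 4.67, 4.17, 5.19 and 5.22 in the same order. At *IL2RG* −69.9 kb NS was the highest, with 5.65, 4.19, 4.13 and 3.57. The lists labelled SW and SW rottlerin alone had a peak at *IL2RA* −67.9 kb (3.32 and 3.91), *IL2RB* −55.8 kb (4.14 and 4.58) and *IL4R* −60.0 kb (3.21 and 5.04). At *IL7R* +56.0 kb NS had 4.66 and SW rottlerin 4.28. The list labelled NS rottlerin alone had a peak at *IL2RG* +56.5 kb (4.13), and that labelled SW rottlerin alone at *IL7R* −144.8 kb (3.71) and *IL21R* +53.8 kb (3.40).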
